A study of Mus musculus with 18 samples.

Results

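The 34 genes described here are markers of liver sinusoidal endothelial cells or of endothelium in general. They were measured in whole liver RNA of 18 mice. They were chosen as the rows of the deposited tables whose symbol is on a list of 34 endothelial genes, and all 34 were found among 25266 symbols. The mice came from a study of SAPS3, a regulatory subunit of protein phosphatase 6 encoded by Ppp6r3, in mice fed a control diet (CD) or a high fat diet (HFD). FF mice carried ppp6r3 fl/fl, and LKO mice carried the same alleles together with Cre from the C57BL/6 Alb-Cre strain, in which the albumin promoter drives the recombinase in hepatocytes. The FF mice are therefore floxed controls without Cre, and no group with Cre alone was analysed here. The groups held 4 FF CD, 4 LKO CD, 5 FF HFD and 5 LKO HFD males. CD (D12450B) supplied 10% and HFD (D12266) 32.5% of calories as fat for 16 weeks from 8 weeks of age. The sample descriptions call the same mice WT and KO.

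Sinusoidal endothelial cells line the capillaries of the liver and are perforated by fenestrae, without a continuous basement membrane, so that plasma reaches the hepatocytes directly. They clear waste molecules and immune complexes from blood through scavenger and lectin receptors, and they depend on VEGF signalling to keep this state. They also release factors that act on their neighbours: BMP2 drives hepcidin expression in hepatocytes, while WNT2 and R-spondin 3 sustain the pericentral programme of hepatocytes. Some of the 34 genes are used elsewhere too, such as Mrc1 and Fcgr2b in macrophages, Aqp1 in bile duct cells and Vwf in larger vessels.

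RPKM, the reads of a gene corrected for its length and for the depth of the library, was the unit deposited. Depth, read from the steps between low values of single-exon genes, was 23.4 M to 36.9 M reads per mouse, where M is mega. Ppp6r3 was lower in every LKO mouse (3.88 to 4.87 RPKM) than in every FF mouse (7.55 to 10.98 RPKM). All 34 genes were above 0 in every mouse. Mean RPKM over the 18 mice was highest for Clec4g (15.6), Fcgr2b (13.6) and Aqp1 (13.4), and lowest for Vwf (0.513), Cd34 (0.468) and Nos3 (0.445). Cd34 and Nos3 were below the filter of a mean of 0.5 RPKM, so 32 of the 34 genes were tested among 11090. Summed over the 34 genes, RPKM was 81.7 to 153 in FF CD, 74.2 to 155 in LKO CD, 170.1 to 264 in FF HFD and 137 to 189.8 in LKO HFD mice. In bulk liver RNA, fewer endothelial cells and less RNA per endothelial cell cannot be told apart.

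Individual mice stood apart on these genes, and 2 of them were on CD. FF CD mouse 2 was the lowest of its group for 27 of the 34 genes, with a sum of 81.7 RPKM against 99.6 to 153 in the other FF CD mice. LKO CD mouse 1 was the lowest of its group for 31 of the 34, with a sum of 74.2 RPKM against 110.1 to 155 in the other LKO CD mice. FF HFD mouse 4 was the highest of its group for 25 of the 34, and FF HFD mouse 5 the lowest for 22. The low values of FF CD mouse 2 and LKO CD mouse 1 run down the columns of the heat map, so results are also given without these mice. Summed RPKM of 26 other endothelial genes was 38.0 in FF CD mouse 2 and 38.5 in LKO CD mouse 1. Each was the lowest of its group, so the low values were not particular to the 34 genes. Summed RPKM of 10 macrophage genes was 91.2 in FF CD mouse 2, within the 70.3 to 94.5 of its group, and 62.5 in LKO CD mouse 1, the lowest of its group. Summed RPKM of 6 hepatocyte genes was 34192 in FF CD mouse 2 and 47934 in LKO CD mouse 1, the range over all mice being 30063 to 47934.

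**Figure D1:**
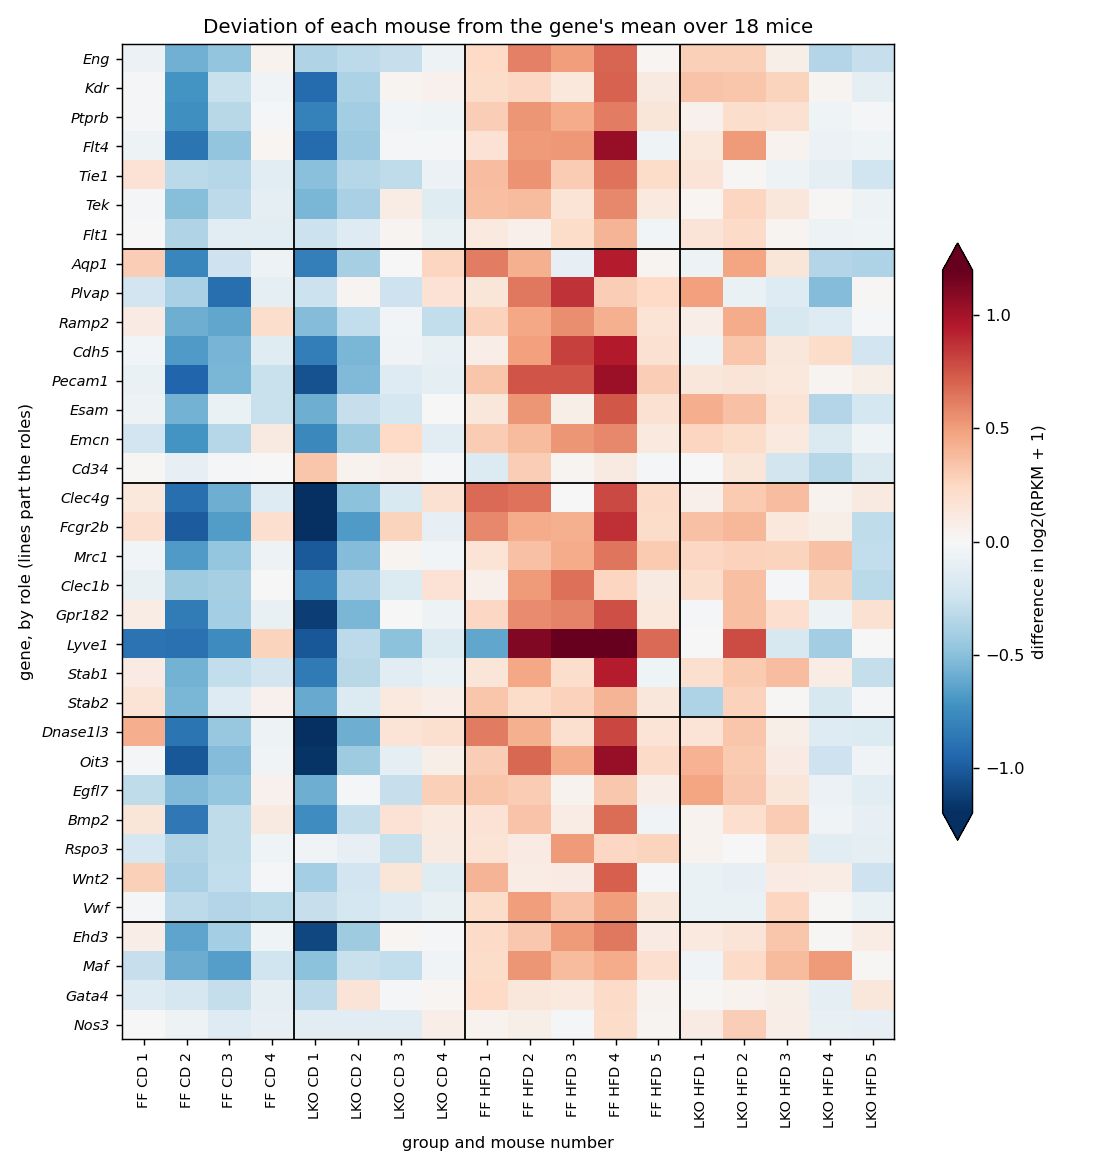
Heat map of the 34 genes (rows, grouped by role) in the 18 mice (columns, grouped by genotype and diet), where the colour is the difference of log2(RPKM + 1) from the gene's mean over all mice. FF HFD mice are mostly red, CD mice mostly blue, and the columns of FF CD mouse 2 and LKO CD mouse 1 are the bluest, with these mice lowest of their groups for 27 and 31 of the 34 genes.

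The first question was how HFD altered these genes in the control genotype. In FF mice, 17 of the 32 tested genes rose under HFD and none fell. A gene was taken to have risen or fallen in limma when its fold on the log2(RPKM + 1) scale exceeded 1.5 and its Benjamini-Hochberg adjusted p, over 11090 genes, was below 0.05. Over all tested genes, 5.11% passed the same thresholds upward. The rises included the scavenger receptor Lyve1 (2.60-fold), the junction protein Pecam1 (2.13-fold), the secreted protein Oit3 (1.92-fold), the junction cadherin Cdh5 (1.82-fold) and the lectin Clec4g (1.80-fold). All 32 differences were positive, and so they were under every rescaling except centring on other endothelial genes, which left 29 of 32 positive. Their median was 0.61 on the log2 scale, beside 0.07 over all tested genes, of which 63.2% were positive. The 32 genes moved together from mouse to mouse. Their shared direction is therefore not 32 separate results, here or in the comparisons below. On the adjusted p alone 25 of the 32 passed (15.8% of all genes). The exact permutation p was under 0.05 for 29 (22.4% of all genes).

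These counts rested in part on FF CD mouse 2 and on FF CD mouse 3. Without FF CD mouse 2 the count of 17 became 6 (Lyve1, Pecam1, Cdh5, Plvap, Oit3 and Maf) and the median 0.50, and without FF CD mouse 3 it became 11 with a median of 0.59. Leaving out FF CD mouse 2 together with LKO CD mouse 1 gave 8 and a median of 0.50. When each mouse was centred on 26 other endothelial genes, 2 genes still passed, Lyve1 and Pecam1, and the median was 0.23. That centring moved the median of all genes to -0.31. Most of the 26 genes are low, and adding 1 RPKM reduces the fold of low genes. The median of 0.23 is thus not shown to be particular to the genes described here. Summed RPKM of the 10 macrophage genes moved the same way, from 70.3 to 94.5 in FF CD to 82.3 to 176 in FF HFD mice, and its part in these results was not tested.

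Promoter sequences are shown for Eng, Emcn, Mrc1 and Clec4g, the 4 of the genes described mouse by mouse below that rose in FF mice and have an entry in the RefSeq promoter table. Of the other genes that rose, Stab1, Flt4 and Ehd3 also have an entry and are not shown. They are the bases before the RefSeq start on GRCm38.p6, cut where the GENCODE gene begins, in lower case and read 5′ to 3′ on the strand of the gene. Capitals mark AGGAAG or its reverse complement CTTCCT, the core bound by ETS factors, the family to which the endothelial regulators ERG and ETS1 belong. Eng lies on the plus strand at chr2:32646345-32646594, Emcn on the plus strand at chr3:137340828-137341066, Mrc1 on the plus strand at chr2:14229164-14229391 and Clec4g on the minus strand at chr8:3720652-3720901.
Eng: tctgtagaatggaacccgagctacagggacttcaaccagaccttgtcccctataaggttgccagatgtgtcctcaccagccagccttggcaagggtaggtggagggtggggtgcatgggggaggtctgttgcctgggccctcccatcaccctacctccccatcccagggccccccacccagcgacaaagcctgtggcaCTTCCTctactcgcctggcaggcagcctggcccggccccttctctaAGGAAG
Emcn: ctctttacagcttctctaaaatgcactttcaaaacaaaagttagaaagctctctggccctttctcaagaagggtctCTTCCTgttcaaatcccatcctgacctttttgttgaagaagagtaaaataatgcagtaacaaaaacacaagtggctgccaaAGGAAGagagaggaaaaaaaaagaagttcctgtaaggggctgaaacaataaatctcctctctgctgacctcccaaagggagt
Mrc1: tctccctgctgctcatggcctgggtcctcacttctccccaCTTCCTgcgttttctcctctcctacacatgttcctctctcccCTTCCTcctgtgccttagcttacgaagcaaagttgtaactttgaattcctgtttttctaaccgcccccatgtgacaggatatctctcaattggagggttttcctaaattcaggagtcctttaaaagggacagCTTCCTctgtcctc
Clec4g: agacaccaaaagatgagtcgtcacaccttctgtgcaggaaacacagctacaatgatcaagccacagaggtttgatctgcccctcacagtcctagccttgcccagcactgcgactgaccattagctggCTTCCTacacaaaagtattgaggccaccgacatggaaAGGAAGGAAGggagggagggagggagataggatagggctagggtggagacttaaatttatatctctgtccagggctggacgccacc
Eng and Emcn hold 2 matches each, Mrc1 and Clec4g 3 each, those of Clec4g including a pair that overlaps. Of the windows not shown, that of Stab1 holds 1 match and those of Flt4 and Ehd3 hold 0, so 5 of the 7 windows of genes that rose (71.4%) hold the motif. Of the 34 genes, 18 have an entry, in 20 windows of 250 bases upstream, and 12 of these windows (60%) hold AGGAAG on either strand, beside 29.5% of all 32851 windows. CGGAAG was found in 2 of the 20 (10%) and in 13.6% of all windows. AGATAA, a core of GATA factors, was found in 0 of the 20 and in 9.99% of all windows. A match describes the letters only.

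Scavenger and clearance receptors came first by role, and 5 of the 8 tested rose in FF mice, with a median of 0.73 over the 8. Lyve1 alone of the 8 passed without FF CD mouse 2, and the median was then 0.58. Lyve1, the hyaluronan receptor of lymphatic and sinusoidal endothelium (chr7:110850607-110863239, minus strand), was at 0.884, 0.873, 1.07 and 3.19 RPKM in the FF CD mice and at 1.26, 6.51, 9.05, 8.06 and 4.58 in the FF HFD mice. FF HFD mouse 1 lay among the CD mice and FF CD mouse 4 above it, yet Lyve1 rose by 1.38 (SE 0.36, adjusted p = 0.0117) on the log2 scale, the largest of the 32 differences. Lyve1 in LKO mice was at 0.724, 1.80, 1.48 and 2.10 on CD and 2.49, 4.999, 2.04, 1.61 and 2.46 on HFD, a difference of 0.53 (SE 0.36, adjusted p = 0.410). LKO HFD mice 1, 2 and 5 were above every LKO CD mouse, and mice 3 and 4 were not.

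Clec4g, a lectin of sinusoidal endothelium that binds glycans (chr8:3707064-3720651, minus strand), was at 16.0, 7.37, 9.41 and 13.1 RPKM in FF CD and 24.0, 23.5, 14.6, 26.1 and 17.4 in FF HFD mice. Clec4g rose by 0.85 (SE 0.24, adjusted p = 0.0190), and the overlap came from FF CD mouse 1 and FF HFD mouse 3. Clec4g in LKO mice was at 5.66, 10.1, 12.8 and 16.7 on CD and 15.3, 18.5, 19.2, 15.2 and 15.8 on HFD, a difference of 0.61 (SE 0.24, adjusted p = 0.147). LKO CD mouse 4 lay within the range of the LKO HFD mice.

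Gpr182, an atypical chemokine receptor of sinusoidal and lymphatic endothelium (chr10:127747276-127751732, minus strand), was at 4.29, 1.79, 2.75 and 3.68 RPKM in FF CD and 4.94, 6.37, 6.55, 7.53 and 4.45 in FF HFD mice. Every FF HFD mouse was above every FF CD mouse, and Gpr182 rose by 0.78 (SE 0.21, adjusted p = 0.0148). Gpr182 in LKO mice was at 1.28, 2.41, 4.01 and 3.77 on CD and 3.92, 5.39, 4.72, 3.78 and 4.66 on HFD, a difference of 0.56 (SE 0.21, adjusted p = 0.131), with LKO CD mouse 3 above 2 of the HFD mice.

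Mrc1, the mannose receptor (chr2:14229392-14332057, plus strand), was at 4.20, 2.31, 2.84 and 4.09 RPKM in FF CD and 4.95, 5.75, 6.21, 7.30 and 5.58 in FF HFD mice. The groups did not overlap, and Mrc1 rose by 0.69 (SE 0.19, adjusted p = 0.0163). Mrc1 in LKO mice was at 1.65, 2.71, 4.44 and 4.18 on CD and 5.30, 5.43, 5.40, 5.75 and 3.34 on HFD, a difference of 0.55 (SE 0.19, adjusted p = 0.108). LKO HFD mouse 5 lay among the LKO CD mice and the other LKO HFD mice above all of them.

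Stab2, which takes up hyaluronan and marks these cells (chr10:86841198-87008025, minus strand), was at 2.75, 1.29, 2.001 and 2.46 RPKM in FF CD and 3.21, 2.89, 3.05, 3.44 and 2.67 in FF HFD mice. FF CD mouse 1 lay within the HFD range, and the difference of 0.40 (SE 0.16, adjusted p = 0.0812) did not pass. Stab2 in LKO mice was at 1.19, 1.99, 2.63 and 2.54 on CD and 1.59, 3.05, 2.37, 1.94 and 2.29 on HFD, a difference of 0.08 (SE 0.16, adjusted p = 0.794) that turned negative when samples were quantile normalised, median centred or centred on other endothelial genes. LKO HFD mouse 1 was below 3 of the 4 LKO CD mice. Of the other receptors of this role, Stab1, the paralogue of Stab2, rose by 0.59 (SE 0.19, adjusted p = 0.0381) in FF mice, from 1.99 ± 0.572 (SD, n = 4) to 3.58 ± 1.31 RPKM (SD, n = 5). Fcgr2b, an inhibitory Fc receptor that removes immune complexes, differed by 0.82 (SE 0.29, adjusted p = 0.0522) and missed the adjusted threshold although its groups did not overlap. Clec1b, a lectin also made by platelets, passed on the adjusted p but not on the fold, at 0.55 (SE 0.18, adjusted p = 0.0370).

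Receptors for VEGF, angiopoietin and TGF-beta family ligands and their partners made up the second role, with 3 of the 7 tested rising in FF mice and a median of 0.57. Without FF CD mouse 2, none of the 7 passed and the median was 0.52. Eng, the co-receptor endoglin (chr2:32646595-32682669, plus strand), was at 9.08, 6.10, 6.59 and 9.88 RPKM in FF CD and 11.5, 15.02, 13.9, 16.1 and 9.73 in FF HFD mice. FF HFD mouse 5 lay just below FF CD mouse 4, the rest did not overlap, and Eng rose by 0.68 (SE 0.17, adjusted p = 0.00742). Eng in LKO mice was at 7.22, 7.52, 7.74 and 9.12 on CD and 11.9, 11.9, 10.1, 7.30 and 7.74 on HFD, a difference of 0.26 (SE 0.17, adjusted p = 0.382), with HFD mice 4 and 5 within the CD range.

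Ptprb, the vascular endothelial phosphatase that acts on TIE2 (chr10:116275523-116389535, plus strand), was at 2.73, 1.27, 2.01 and 2.74 RPKM in FF CD and 3.65, 4.47, 4.14, 4.77 and 3.18 in FF HFD mice. Ptprb rose by 0.68 (SE 0.16, adjusted p = 0.00627) with no overlap. Ptprb in LKO mice was at 1.15, 1.83, 2.70 and 2.65 on CD and 2.93, 3.37, 3.29, 2.64 and 2.76 on HFD, a difference of 0.41 (SE 0.16, adjusted p = 0.147), and LKO HFD mouse 4 lay among the CD mice.

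Kdr, the main signalling receptor for VEGF-A (chr5:75932827-75978458, minus strand), was at 2.75, 1.30, 2.15 and 2.67 RPKM in FF CD and 3.41, 3.48, 3.12, 5.19 and 3.07 in FF HFD mice. The groups did not overlap, and the difference of 0.54 (SE 0.19, adjusted p = 0.0522) missed both thresholds. Kdr in LKO mice was at 0.989, 1.91, 2.88 and 2.93 on CD and 3.80, 3.75, 3.54, 2.87 and 2.48 on HFD, a difference of 0.47 (SE 0.19, adjusted p = 0.152). HFD mice 1 to 3 of the LKO group were above all LKO CD mice, and mice 4 and 5 were not.

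Flt4, the receptor for VEGF-C, rose by 0.78 (SE 0.23, adjusted p = 0.0203) in FF mice, from 1.96 ± 0.794 (SD, n = 4) to 4.12 ± 1.54 RPKM (SD, n = 5). Tie1 and Tek, which encode the receptors TIE1 and TIE2, passed on the adjusted p with folds just under 1.5. Their differences were 0.57 (SE 0.12, adjusted p = 0.00247) and 0.56 (SE 0.13, adjusted p = 0.00457). Flt1, which binds VEGF-A with little signalling of its own, passed on the adjusted p alone as well, at 0.31 (SE 0.10, adjusted p = 0.0295), a difference that turned negative with centring on other endothelial genes. The FF groups did not overlap for Tie1 and Tek.

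Adhesion, junction and surface proteins shared by endothelia had 5 of 7 tested genes rising in FF mice, with a median of 0.67. Pecam1, Cdh5 and Plvap passed without FF CD mouse 2, and the median was then 0.53. Pecam1, the junction protein CD31 (chr11:106654217-106750628, minus strand), was at 2.95, 1.16, 1.85 and 2.47 RPKM in FF CD and 4.26, 6.02, 6.06, 7.49 and 4.12 in FF HFD mice. Pecam1 rose by 1.09 (SE 0.19, adjusted p = 0.000825) with no overlap. Pecam1 in LKO mice was at 1.02, 1.88, 2.76 and 2.87 on CD and 3.58, 3.66, 3.57, 3.26 and 3.40 on HFD, a difference of 0.56 (SE 0.19, adjusted p = 0.0992). Here too every HFD mouse was above every CD mouse, and the LKO HFD mice differed little among themselves.

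Cdh5, the cadherin of endothelial junctions (chr8:104101625-104144511, plus strand), was at 3.28, 1.72, 1.96 and 2.95 RPKM in FF CD and 3.62, 5.14, 6.72, 7.45 and 3.95 in FF HFD mice. Cdh5 rose by 0.86 (SE 0.20, adjusted p = 0.00545) with no overlap. Cdh5 in LKO mice was at 1.46, 1.98, 3.23 and 3.10 on CD and 3.19, 4.501, 3.81, 4.07 and 2.73 on HFD, a difference of 0.46 (SE 0.20, adjusted p = 0.183), with HFD mice 1 and 5 within the CD range.

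Plvap, which forms the diaphragms of fenestrae and caveolae (chr8:71497765-71511752, minus strand), was at 8.21, 7.23, 4.77 and 9.04 RPKM in FF CD and 10.9, 15.7, 18.7, 12.2 and 11.7 in FF HFD mice. Plvap rose by 0.84 (SE 0.19, adjusted p = 0.00529) with no overlap. Plvap in LKO mice was at 8.03, 10.0, 8.08 and 11.2 on CD and 14.2, 9.22, 8.71, 6.52 and 9.89 on HFD, a difference of 0.03 (SE 0.19, adjusted p = 0.954) that turned negative under quantile normalisation, both centrings and without LKO CD mouse 1, LKO CD mouse 3 or LKO HFD mouse 1. LKO HFD mouse 4 was below every LKO CD mouse and LKO HFD mouse 1 above them all.

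Emcn, the sialomucin endomucin (chr3:137341067-137432185, plus strand), was at 0.896, 0.355, 0.760 and 1.40 RPKM in FF CD and 1.74, 1.89, 2.22, 2.32 and 1.41 in FF HFD mice. Emcn rose by 0.67 (SE 0.18, adjusted p = 0.0116), and FF CD mouse 4 lay just below FF HFD mouse 5. Emcn in LKO mice was at 0.302, 0.656, 1.63 and 1.03 on CD and 1.65, 1.60, 1.42, 0.973 and 1.15 on HFD, a difference of 0.35 (SE 0.18, adjusted p = 0.256). LKO CD mouse 3 was above 4 of the 5 LKO HFD mice.

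Ramp2, a partner of the adrenomedullin receptor (chr11:101246028-101259546, plus strand), was at 4.29, 2.29, 2.20 and 4.70 RPKM in FF CD and 4.996, 5.81, 6.25, 5.62 and 4.55 in FF HFD mice. Ramp2 rose by 0.60 (SE 0.17, adjusted p = 0.0169), and FF CD mouse 4 lay above FF HFD mouse 5. Ramp2 in LKO mice was at 2.44, 3.01, 3.83 and 3.03 on CD and 4.20, 5.72, 3.33, 3.44 and 3.84 on HFD, a difference of 0.32 (SE 0.17, adjusted p = 0.283), with LKO CD mouse 3 above HFD mice 3 and 4. Esam, a junction protein, passed on the adjusted p alone, at 0.58 (SE 0.18, adjusted p = 0.0267), and Aqp1, a water channel, did not pass, at 0.58 (SE 0.25, adjusted p = 0.117). Cd34 was too low for the test, at 0.437 ± 0.0497 (SD, n = 4) in FF CD and 0.520 ± 0.182 RPKM (SD, n = 5) in FF HFD mice.

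**Figure D2:**
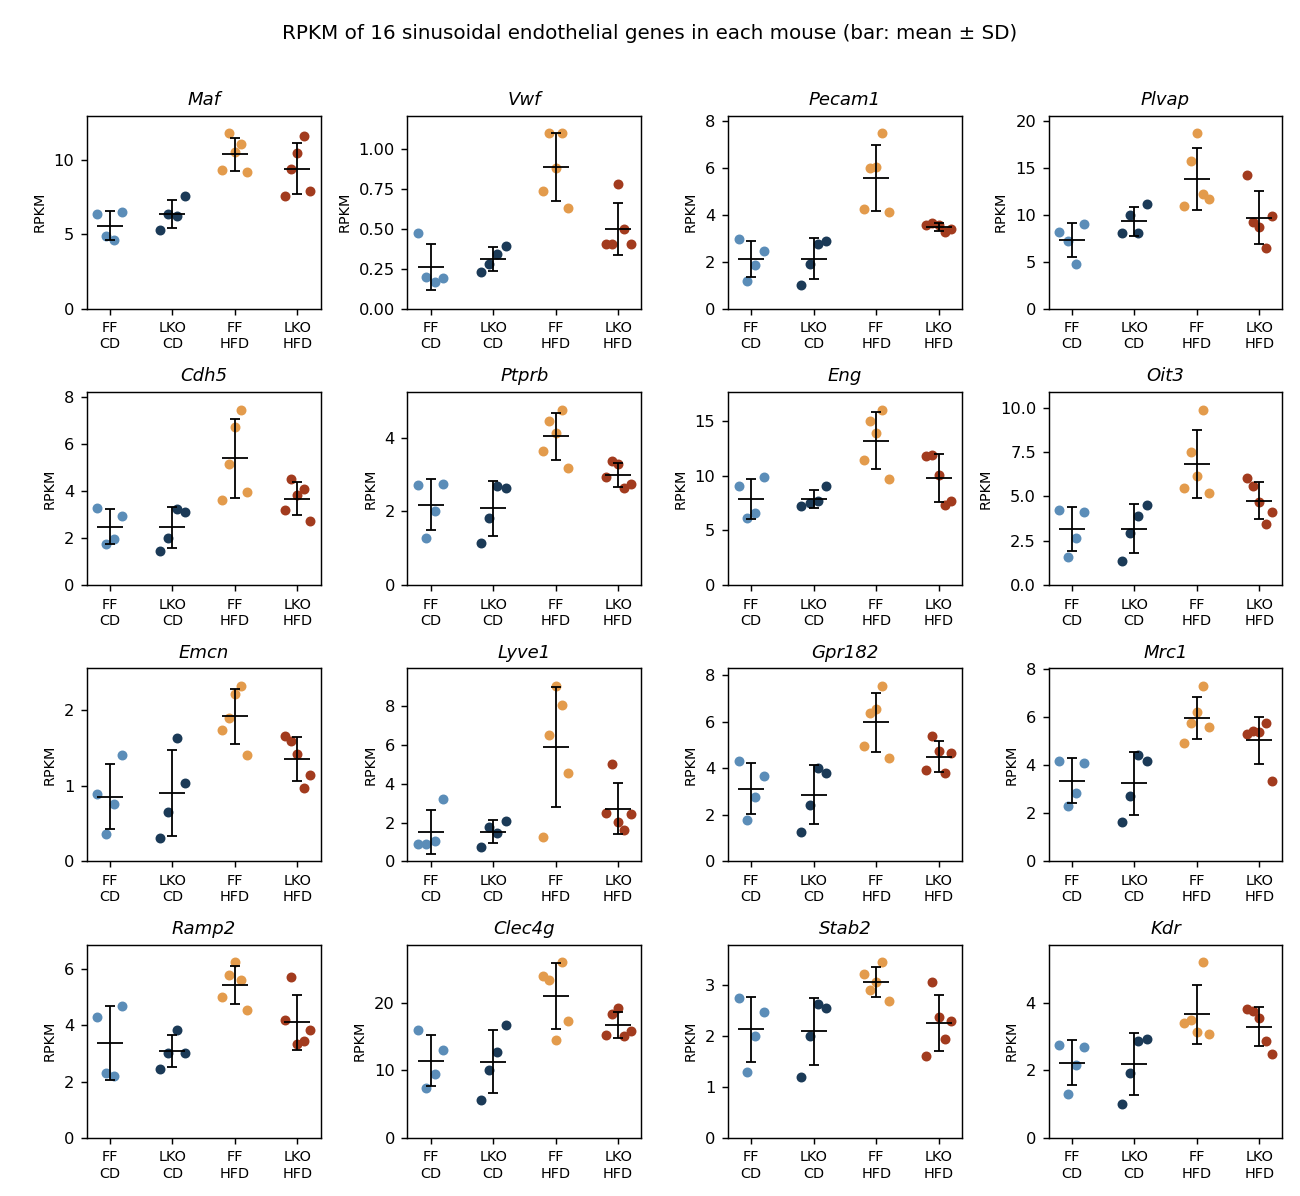
RPKM of the 16 genes described mouse by mouse, with a point for each mouse and a bar for the group's mean ± SD, by genotype and diet (n = 4 on CD, n = 5 on HFD). The FF HFD mean is the highest of the 4 group means in every panel, and the Lyve1 panel spans 1.26 to 9.05 RPKM within that group.

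Of the secreted factors, 2 of 7 rose in FF mice, with a median of 0.53. Oit3 alone of the 7 passed without FF CD mouse 2, and the median was then 0.45. Vwf, the clotting factor von Willebrand factor (chr6:125546774-125686679, plus strand), was at 0.476, 0.199, 0.169 and 0.192 RPKM in FF CD and 0.735, 1.099, 0.880, 1.101 and 0.633 in FF HFD mice. Vwf rose by 0.59 (SE 0.09, adjusted p = 0.000402), a fold of 1.5003 at the edge of the threshold, while the ratio of its mean RPKM was 3.43, since adding 1 RPKM reduces the fold of low genes. Vwf in LKO mice was at 0.227, 0.281, 0.340 and 0.395 on CD and 0.406, 0.405, 0.781, 0.501 and 0.407 on HFD, a difference of 0.19 (SE 0.09, adjusted p = 0.245), again with no overlap. That LKO difference turned negative when the mice were centred on other endothelial genes.

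Oit3, a secreted protein with a ZP domain found in these cells (chr10:59422958-59441778, minus strand), was at 4.22, 1.60, 2.67 and 4.12 RPKM in FF CD and 5.46, 7.49, 6.16, 9.90 and 5.18 in FF HFD mice. Oit3 rose by 0.94 (SE 0.25, adjusted p = 0.0114) with no overlap. Oit3 in LKO mice was at 1.33, 2.93, 3.91 and 4.53 on CD and 6.03, 5.57, 4.65, 3.43 and 4.14 on HFD, a difference of 0.52 (SE 0.25, adjusted p = 0.221), where LKO CD mouse 4 lay above HFD mice 4 and 5.

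Rspo3, the enhancer of WNT signalling, passed on the adjusted p with a fold of 1.41 and no overlap, at 0.49 (SE 0.10, adjusted p = 0.00163), from 1.87 ± 0.272 (SD, n = 4) to 3.05 ± 0.460 RPKM (SD, n = 5). In LKO mice its difference was 0.06 (SE 0.10, adjusted p = 0.750), which turned negative under quantile normalisation and both centrings. Wnt2, the WNT ligand, did not pass in FF mice, at 0.36 (SE 0.15, adjusted p = 0.104), a difference that turned negative with centring on other endothelial genes, and it rested on an estimated 12 to 102 reads per mouse. Bmp2, the inducer of hepcidin, did not pass either, at 0.48 (SE 0.21, adjusted p = 0.111). Egfl7, an extracellular matrix protein of vessels, passed on the adjusted p alone, at 0.53 (SE 0.16, adjusted p = 0.0282). The nuclease Dnase1l3 did not pass, at 0.68 (SE 0.27, adjusted p = 0.0847).

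Of the 3 tested transcription factors and intracellular proteins, 2 rose in FF mice, and Maf alone passed without FF CD mouse 2. Maf, a transcription factor of the sinusoidal programme (chr8:115682942-115707794, minus strand), was at 6.32, 4.87, 4.59 and 6.52 RPKM in FF CD and 9.30, 11.8, 10.5, 11.1 and 9.14 in FF HFD mice. Maf rose by 0.80 (SE 0.13, adjusted p = 0.000371) with no overlap, the smallest adjusted p of the 32 genes. Maf in LKO mice was at 5.28, 6.37, 6.19 and 7.59 on CD and 7.58, 9.40, 10.5, 11.6 and 7.92 on HFD, a difference of 0.49 (SE 0.13, adjusted p = 0.0406) that passed the adjusted p but not the fold. LKO HFD mouse 1 was level with LKO CD mouse 4.

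Ehd3, an endocytic protein, rose by 0.61 (SE 0.19, adjusted p = 0.0294) in FF mice, from 8.35 ± 2.06 (SD, n = 4) to 13.2 ± 2.11 RPKM (SD, n = 5). Gata4, which sets the sinusoidal identity in development, passed on the adjusted p with a fold of 1.27 and no overlap, at 0.34 (SE 0.08, adjusted p = 0.00824), and this difference turned negative with centring on other endothelial genes. Nos3, the endothelial nitric oxide synthase, was below the filter at 0.362 ± 0.0589 (SD, n = 4) in FF CD and 0.514 ± 0.0972 RPKM (SD, n = 5) in FF HFD mice.

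The next question was how the same diet acted in LKO mice. None of the 32 genes passed both thresholds there (0.965% of all genes did upward), by limma, and 14 had an unadjusted p under 0.05 (18.1% of all genes). Maf alone passed on the adjusted p (3.44% of all genes), and 10 passed by exact permutation (14.7% of all genes). All 32 differences were positive as deposited, 28 after quantile normalisation or median centring and 24 after centring on other endothelial genes. Their median was 0.37 on the log2 scale, beside 0.07 over all tested genes, of which 65.8% were positive. Groups did not overlap for Pecam1 and Vwf (7.71% of all genes). Without LKO CD mouse 1 the median was 0.23, with 29 of 32 positive.

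**Figure D3:**
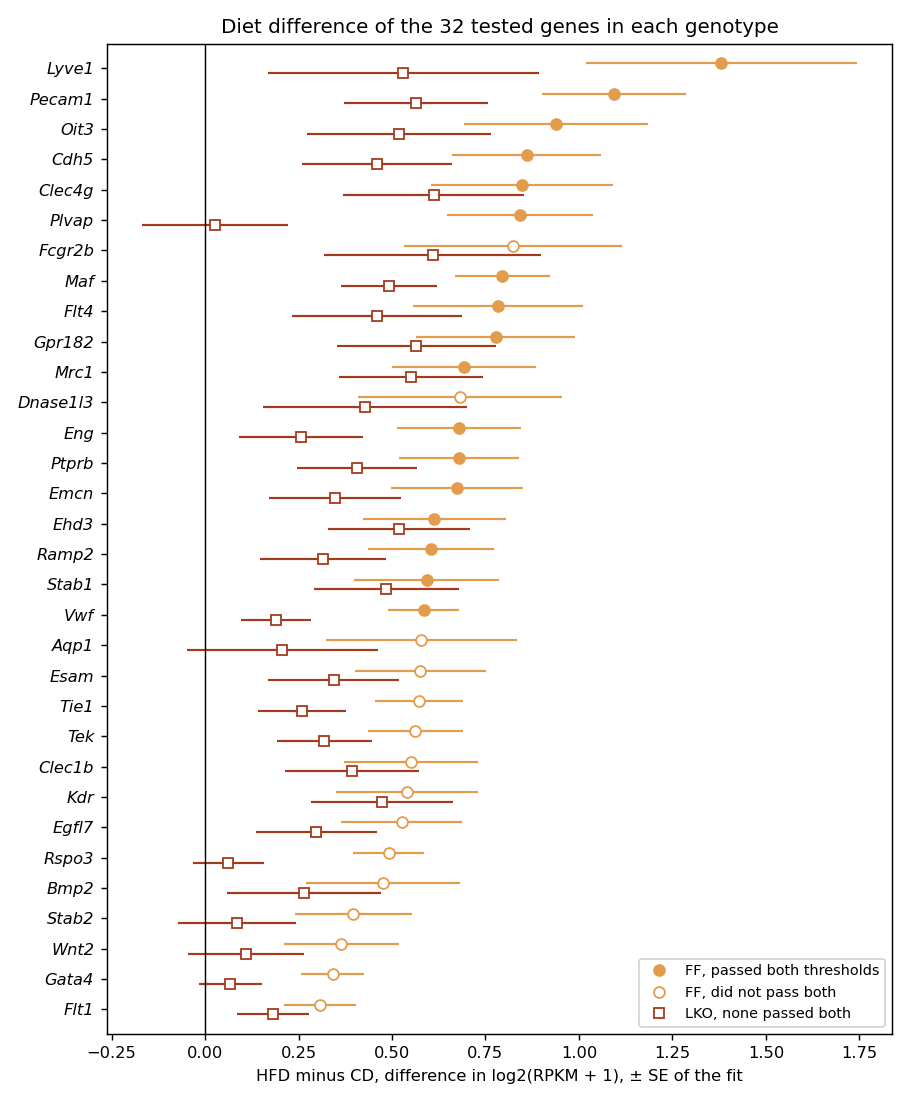
Difference between HFD and CD in log2(RPKM + 1), with the SE of the limma fit, for the 32 tested genes in FF mice (circles) and LKO mice (squares), ordered by the difference in FF mice. Filled circles mark the 17 genes past both thresholds in FF mice, the LKO value lies to the left of the FF value for all 32, and the tests of that interaction gave 0 calls.

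The genotypes were then compared within each diet. Under CD, none of the 32 genes passed between LKO and FF mice by limma (0.225% of all genes did in either direction), and none had a p under 0.05 unadjusted (7.67% of all genes) or by exact permutation (5.07% of all genes). The differences ran from -0.16 for Fcgr2b to 0.33 for Plvap with a median of -0.02, beside 0.03 over all genes. The median SE of these differences was 0.20. The sign of the median depended on the mice, from -0.16 without FF CD mouse 2 to 0.14 without LKO CD mouse 1.

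Under HFD the LKO mean was below the FF mean for all 32 genes, and for 27 of 32 after centring on other endothelial genes. None passed both thresholds by limma (1.17% of all genes did downward), while 12 had an unadjusted p under 0.05 (8.10% of all genes) and 11 passed by exact permutation (6.11% of all genes). The median was -0.32 on the log2 scale, beside 0.03 over all genes, of which 57.4% were positive. Tie1 and Vwf passed on the adjusted p alone (2.10% of all genes), with differences of -0.46 (SE 0.11, adjusted p = 0.0252) and -0.33 (SE 0.09, adjusted p = 0.0432). Groups did not overlap for Tie1 and Pecam1 (2.02% of all genes). This comparison uses the same FF HFD mice as the diet comparison in FF mice, and the same LKO HFD mice as the one in LKO mice, so the results are not independent.

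Tie1 was at 2.15, 2.55, 2.01, 2.83 and 1.85 RPKM in the FF HFD and 1.72, 1.47, 1.34, 1.26 and 1.07 in the LKO HFD mice. The lowest FF mouse thus lay above the highest LKO mouse, and the exact permutation p was 0.00794, the smallest that 5 against 5 mice allow. On CD, Tie1 was at 1.75, 0.947, 0.925 and 1.24 in FF and 0.725, 0.924, 0.976 and 1.33 RPKM in LKO mice, with overlap. Pecam1 differed by -0.53 (SE 0.18, adjusted p = 0.113), Plvap by -0.48 (SE 0.18, adjusted p = 0.153) and Lyve1 by -0.78 (SE 0.34, adjusted p = 0.218) between the genotypes under HFD. Lyve1 passed both thresholds without FF HFD mouse 1, at -1.14 (adjusted p = 0.0201), and Plvap without LKO HFD mouse 1, at -0.62 (adjusted p = 0.0426).

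The interaction asks whether the diet difference itself differed between genotypes. It was negative for all 32 genes as deposited, with the LKO difference the smaller, and for 28 of 32 after centring on other endothelial genes. None passed both thresholds by limma (2.44% of all genes did in either direction), and 4 had an unadjusted p under 0.05 (16.5% of all genes), namely Rspo3, Plvap, Vwf and Gata4. The median was -0.27, beside -0.01 over all genes, of which 48.7% were positive. Rspo3 had an interaction of -0.43 (SE 0.13, adjusted p = 0.1001), Plvap of -0.82 (SE 0.28, adjusted p = 0.130) and Vwf of -0.40 (SE 0.13, adjusted p = 0.131). Without FF CD mouse 2 the median was -0.16 with 29 of 32 negative, and without LKO CD mouse 1 it was -0.42. Without LKO HFD mouse 1, Plvap passed at -0.95 (SE 0.25, adjusted p = 0.0412).

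Other endothelial genes were set beside these 32. Of 23 tested, 5 rose in FF mice and none fell, with a median of 0.47. Most of the 23 are low, and adding 1 RPKM reduces the fold of low genes. The medians of 0.47 here and 0.61 above are thus not like measures. In FF mice 21 of the 23 differences were positive, all but those of Nrp1 and S1pr1. In LKO mice 2 rose, Nrp1 and Notch1, with a median of 0.21. Without FF CD mouse 2, Clec14a alone passed in FF mice with a median of 0.39, and without LKO CD mouse 1 none passed in LKO mice. Erg, the ETS factor that maintains endothelial identity, rose by 0.60 (SE 0.11, adjusted p = 0.000830) in FF mice, and its LKO difference was 0.48 (SE 0.11, adjusted p = 0.0241). Clec14a, a vascular C-type lectin, rose by 0.81 (SE 0.13, adjusted p = 0.000307), at 0.563 to 1.34 RPKM in FF CD and 2.15 to 2.89 in FF HFD mice, which did not overlap. Mmrn2, its matrix partner, rose by 0.63 (SE 0.12, adjusted p = 0.00131), the receptor Notch1 by 0.59 (SE 0.15, adjusted p = 0.00839), and the adhesion receptor Adgrl4 by 0.66 (SE 0.18, adjusted p = 0.0146). In LKO mice Notch1 rose by 0.62 (SE 0.15, adjusted p = 0.0313). Nrp1, the VEGF co-receptor neuropilin 1, was at 14.99 ± 4.81 (SD, n = 4) in FF CD, 11.01 ± 2.21 (SD, n = 5) in FF HFD, 10.5 ± 1.38 (SD, n = 4) in LKO CD and 20.1 ± 3.93 RPKM (SD, n = 5) in LKO HFD mice. Nrp1 rose in LKO mice by 0.86 (SE 0.18, adjusted p = 0.0218) and was higher in LKO than FF mice under HFD by 0.81 (SE 0.17, adjusted p = 0.0130), with an interaction of 1.24 (SE 0.26, adjusted p = 0.0131). Neuropilin 1 is also made by other liver cells. S1pr1 differed by -0.31 (SE 0.12, adjusted p = 0.0683) with HFD in FF mice and did not pass. Under HFD it was higher in LKO than FF mice, at 0.46 (SE 0.11, adjusted p = 0.0256), past the adjusted p but not the fold.

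By position in the lobule, 1 of 5 tested pericentral and 1 of 6 tested periportal or arterial endothelial genes rose in FF mice. Fabp4, a fatty acid binding protein of venous endothelium that fat cells and macrophages also make, rose by 1.97 (SE 0.28, adjusted p = 0.000135) in FF and by 1.08 (SE 0.28, adjusted p = 0.0407) in LKO mice, and was lower in LKO than in FF mice under HFD, at -0.96 (SE 0.27, adjusted p = 0.0494). Fabp4 did not pass in LKO mice without LKO CD mouse 1, nor between genotypes under HFD without either of the 2 low CD mice. Its level was 2.75 to 5.62 RPKM in FF CD and 10.8 to 25.9 in FF HFD mice, without overlap. Ntn4, a netrin of vessel walls, rose by 0.67 (SE 0.14, adjusted p = 0.00308) in FF mice and did not pass without FF CD mouse 2. Among 4 tested genes of endothelial activation, Vcam1, the leukocyte adhesion molecule, rose by 1.11 (SE 0.21, adjusted p = 0.00150) in FF mice, from 2.56 ± 0.846 (SD, n = 4) to 6.89 ± 2.43 RPKM (SD, n = 5).

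Of the ligands of the receptors described above, 9 of 15 were tested, and none passed both thresholds by limma in any comparison, while 4 passed on the adjusted p in FF mice. Vegfa, which signals through Kdr, was 40.7 ± 5.52 (SD, n = 4) in FF CD and 27.8 ± 1.86 RPKM (SD, n = 5) in FF HFD mice, a difference of -0.53 (SE 0.10, adjusted p = 0.000996) that passed the adjusted p but not the fold, and passed both without FF CD mouse 2. Between LKO and FF mice under HFD the Vegfa difference was 0.42 (SE 0.09, adjusted p = 0.0138), past the adjusted p but again not the fold. Vegfb, the next most abundant ligand, was 8.45 ± 0.473 (SD, n = 4) in FF CD and 8.31 ± 1.32 RPKM (SD, n = 5) in FF HFD mice, a difference of -0.03 (SE 0.11, adjusted p = 0.871).

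Hepatocyte genes that respond to the BMP and WNT factors were counted as well. Over all 11090 tested genes, 165 fell in FF mice and 34 in LKO mice by the same thresholds. Of 9 tested BMP response genes, 1 fell in FF mice, Hamp, which encodes hepcidin, with a difference of -1.53 (SE 0.35, adjusted p = 0.00479), at 559 to 1334 RPKM in FF CD and 189 to 565 in FF HFD mice. Hamp2, its paralogue, fell in LKO mice with a difference of -2.71 (SE 0.47, adjusted p = 0.0108) and was lower in LKO than FF mice under HFD, at -2.46 (SE 0.44, adjusted p = 0.00402). Reads of these near-identical copies may have been shared between them. Of 15 tested WNT response genes, 1 fell in FF mice, the pericentral cytochrome Cyp1a2 with a difference of -1.08 (SE 0.14, adjusted p = 6.78e-05), and 1 rose in LKO mice, the transcription factor Tbx3 by 1.19 (SE 0.23, adjusted p = 0.0170). Rhbg, an ammonium transporter, was lower in LKO than FF mice under HFD, at -0.86 (SE 0.19, adjusted p = 0.0138).

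Markers of other cells moved with the endothelial genes in part. All 10 macrophage genes were tested and 4 rose in FF mice (Vsig4, Adgre1, Csf1r and C1qb), with a median of 0.60, of which Adgre1 and Csf1r passed without FF CD mouse 2, and 1 rose in LKO mice (Clec4f), with a median of 0.55, though not without LKO CD mouse 1. Their summed RPKM in LKO mice was 62.5 to 96.2 on CD and 89.8 to 159.8 on HFD. Endothelial genes such as Mrc1 and Fcgr2b are made by macrophages too. The part of macrophages in the values was not tested for these or for any other of the endothelial genes. Stellate cell genes had 0 of 7 tested past both thresholds in FF mice by limma (1 on the adjusted p), a median of 0.26 and a summed RPKM of 96.9 to 149 in FF CD and 129 to 167 in FF HFD mice. The most abundant stellate gene, Dcn, which encodes the proteoglycan decorin, differed by 0.34 (SE 0.20, adjusted p = 0.255) in FF mice, and Ecm1 by 0.26 (SE 0.18, adjusted p = 0.320). Of 6 hepatocyte genes, 2 fell in FF mice, beside 165 of all 11090 tested genes. They were the apolipoprotein Apoa1, with a difference of -0.72 (SE 0.15, adjusted p = 0.00276), and the urea cycle enzyme Cps1, with -1.24 (SE 0.18, adjusted p = 0.000157). Tagln, of smooth muscle, rose by 0.99 (SE 0.14, adjusted p = 0.000135) in FF mice, with an interaction of -0.77 (SE 0.20, adjusted p = 0.0427) that did not pass without either of the low CD mice. No gene of the lymphocyte (1 tested), bile duct (2) or red cell (3) lists passed by limma in FF mice, nor on the adjusted p, with the bile duct transcription factor Sox9 at -0.31 (SE 0.17, adjusted p = 0.223) and the globin Hba-a1 at 0.64 (SE 0.54, adjusted p = 0.436). The 4 platelet genes, which mark another source of Vwf and Clec1b, were under the filter, with a sum of 0.807 to 1.36 RPKM in FF CD and 1.14 to 2.39 in FF HFD mice, and their part in these values was not tested.

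**Figure D4:**
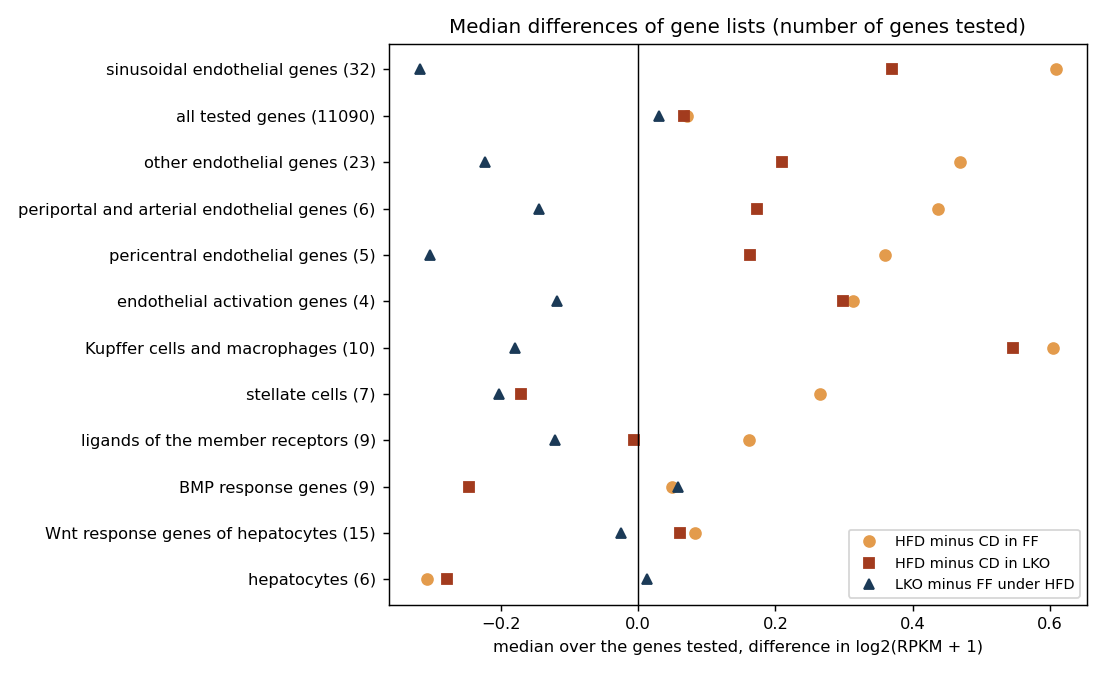
Median difference in log2(RPKM + 1) of each gene list, with the number of genes tested in parentheses, for HFD minus CD in FF mice (circles), HFD minus CD in LKO mice (squares) and LKO minus FF under HFD (triangles). The list labelled sinusoidal endothelial genes includes general endothelial markers. It and the macrophage genes have the highest medians in FF mice of the 12 sets shown (0.61 and 0.60). These sets leave out lists with fewer than 4 tested genes, such as smooth muscle (2 tested, 0.74) and red cells (3 tested, 0.64). The other endothelial genes are at 0.47 and all tested genes at 0.07. Most of the other endothelial genes are low, where adding 1 RPKM reduces the fold, so 0.47 and 0.61 are not like measures.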

How the data were processed

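Liver RNA of 18 male mice, each its own animal and library, was sequenced, and the authors deposited 1 table of RPKM per mouse. The submitters' processing notes name HISAT2 2.0.4, Partek and mm10. The annotation, strand setting and treatment of multiply mapped reads are not given in the sources used here, so members with overlapping antisense genes could hold reads of these. Groups came from the sample labels. The 34 genes and all lists were chosen with earlier results of these data known.

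Values were taken as log2(RPKM + 1), a scale on which a fold change understates the change of low genes. Genes with a mean of at least 0.5 RPKM were fitted together in 4 groups with limma 3.58.1 (R 4.3.3, trended variance), after the script was tested on simulated data. Benjamini-Hochberg adjustment ran over all 11090 tested genes and 0.05 was the threshold, with a fold above 1.5. SE is that of the limma fit. Exact two-sided permutation tests on single genes cannot give a p below 0.00794 for 4 against 5 or 5 against 5 mice and 0.0286 for 4 against 4. Genes were described mouse by mouse when they were the 14 with the smallest adjusted p among those past both thresholds in any comparison, plus Stab2, Kdr, Lyve1, Clec4g, Pecam1 and Cdh5, of which the last 4 were already among the 14. Of the other lists, up to 4 genes past both thresholds were named by adjusted p, or otherwise the most abundant. Nrp1, S1pr1, Adgrl4 and Vsig4 fall outside this rule and were named after their values were seen. Depth and reads per gene were estimated from RPKM steps at single-exon genes and GENCODE M21 exon lengths, which may overstate reads, and cover counting error only. Gene positions are from GENCODE M21 (GRCm38) and promoter windows from RefSeq on GRCm38.p6. Python 3.11.15 with numpy 2.4.6, pandas 2.3.3, scipy 1.17.1 and matplotlib 3.10.9 was used. Alternatives covered pseudocount, filter, scaling, centring, variance moderation, a replicate block and each mouse left out.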

Additional observations from a re-analysis of the deposited data

Results flagged for a closer look

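Single mice stood far from the rest of their group for 7 of 136 combinations of gene and group, a gap test (Dixon) in which chance marks about 1 in 20 groups. Lyve1 was at 3.19 RPKM in FF CD mouse 4, with the next FF CD mouse at 1.07, and at 4.999 RPKM in LKO HFD mouse 2, with the next at 2.49. Mrc1 was at 3.34 RPKM in LKO HFD mouse 5, below the next at 5.30. Kdr was at 5.19 RPKM in FF HFD mouse 4, above the next at 3.48. Vwf was at 0.476 RPKM in FF CD mouse 1, with the next at 0.199, and at 0.781 RPKM in LKO HFD mouse 3, with the next at 0.501. Nos3 was at 0.522 RPKM in LKO CD mouse 4, with the next at 0.317. FF CD mouse 2 and LKO CD mouse 1, the lowest of their groups for most of the 34 genes, were not among these mice.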

How the results depend on the processing

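Single genes were followed through the alternatives for all 32 tested genes in FF mice, and for the 16 genes described mouse by mouse in LKO mice and between genotypes under HFD. Of these values 1713 kept their direction and side of the thresholds, 70 lost a call, 50 gained one and 18 changed sign. Leaving out a mouse of a group not compared left the difference itself unchanged. Part of the 1713 could therefore not change direction, and the number is no measure of stability. In FF mice the count of 17, beside 5.11% of all genes upward, became 11 under quantile normalisation (3.81% of all genes), 2 with centring on other endothelial genes (1.65%), whose median was then 0.23, and 8 without FF CD mouse 2 and LKO CD mouse 1 (5.06%), a setting chosen after seeing the data. With a pseudocount of 0.1 it was 24 (9.36%), with rescaling to one sum 25 (6.74%) and on the adjusted p alone 25 (15.8%). Leaving out 1 mouse gave 6 to 24, beside 4.18% to 5.52% of all genes. The median of all genes in FF mice moved from 0.07 to -0.31 with the endothelial centring, and in LKO mice from 0.07 to -0.18. In LKO mice the count of 0 became 1 on the adjusted p alone. Under HFD the count between genotypes became 1 with a pseudocount of 0.1 (Tie1), 2 on the adjusted p alone, and 0 to 1 with 1 mouse left out, as did the interaction.

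Rescaling turned signs as follows, over all 32 tested genes. With endothelial centring 3 turned in FF mice, Flt1 (-0.0708), Wnt2 (-0.0137) and Gata4 (-0.0373). In LKO mice 8 turned, Vwf (-0.0543), Plvap (-0.22), Stab2 (-0.16), Rspo3 (-0.18), Gata4 (-0.18), Wnt2 (-0.13), Flt1 (-0.0618) and Aqp1 (-0.0370). Between genotypes under HFD 5 turned, Maf (0.0148), Kdr (0.0399), Gata4 (0.0294), Flt1 (0.0637) and Egfl7 (0.0858). In the interaction 4 turned, Ehd3, Flt1, Kdr and Stab1. In LKO mice Plvap, Stab2, Rspo3 and Gata4 also turned under quantile normalisation (-0.0377, -0.0294, -0.0441 and -0.0402) and with median centring (-0.0690, -0.0111, -0.0342 and -0.0290). Plvap there was -0.0338 and Stab2 -0.0701 without both low mice, and with 1 mouse left out they ran from -0.11 to 0.14 and from -0.0701 to 0.17. Under CD, where the differences between genotypes lay near 0, each rescaling turned 2 to 3 signs. The cause of these changes was not tested.

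A fit with the replicate number as a block (replicate block) called 23 genes in FF mice (5.62% of all genes), with a median of 0.68. Correlations of the deviations of same-numbered mice ran from -0.17 to 0.33 with a median of 0.054, and 10 of 25 were over 0.1. The median for differently numbered mice was -0.012, and 5 of 18 mice correlated best with their own number. Whether same-numbered mice were paired is not stated in the sources used here and was not tested. With 4 or 5 mice a group, the median SE was 0.19 for the diet differences and 0.26 for the interaction. Differences well above their SE could still miss the thresholds, such as Dnase1l3 in FF mice at 0.68 (SE 0.27, adjusted p = 0.0847). A gene that did not pass is thus not shown to be unchanged, and low genes such as Nos3 and Cd34 were not tested.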
